A study of Mus musculus with 6 samples.

Results

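The genes described are receptors of the heart that couple to heterotrimeric G proteins and bind ligands other than adrenaline and noradrenaline. They were chosen by name from 41 symbols, with 1 probe set per gene, the one with the highest mean over the 6 arrays. Of the 41 receptors, 37 were measured, among 18193 named genes in all, and Chrm2, Ednra, F2rl1 and Htr2a were not analysed here. Hearts of mice heterozygous for a targeted allele of Grk2 (written GRK2+/-, strain B6.129-Adrbk1tm1Mca/J, backcrossed for over 20 generations onto C57BL/6J) were set beside those of wild-type littermates labelled C57BL/6J (WT). All animals were 9 months old, and each group held 3 hearts with 1 Affymetrix array each. The labels name no Cre, transgene or drug, and do not give the sex of the animals. RNA came from the upper part of each heart.

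Receptors of this family span the membrane and, when a ligand binds, activate a G protein that raises or lowers cyclic AMP or releases calcium through phospholipase C. GRK2 is a kinase that phosphorylates active receptors, after which arrestins bind and signalling stops, so it acts on many of the receptors listed here and not on beta-adrenergic receptors alone. In heart tissue these receptors lie on different cells: receptors for angiotensin and endothelin on cardiomyocytes, fibroblasts and vascular smooth muscle, those for apelin and adrenomedullin largely on endothelium, and several nucleotide and lipid receptors on leukocytes and platelets. In a piece of whole tissue, fewer cells of a type and less RNA per cell cannot be told apart.

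Levels are the deposited log2 values of a probe set, and differences are GRK2+/- minus WT on the same log2 scale with the standard error (SE) of limma, fitted to all 18193 genes with 3 hearts per group. Array medians lay between 6.25 and 6.31, and correlations between arrays between 0.9936 and 0.9967. Grk2 itself was not analysed here, so that gene gives no check of the genotype labels. The cardiomyocyte marker Myh6 stood at 14.88 in GRK2+/- and 14.83 in WT hearts, and all 12 cardiomyocyte markers were above the background level used here (6.43, defined with the receptor levels). Of the 9 atrial markers 5 were above it (Nppa, Kcnj3, Myl4, Tbx5 and Nr2f2), and Myl7 (5.61 and 5.50) and Sln (5.71 and 5.65) were among the 4 that were not. At an unadjusted p under 0.05, 1 atrial marker was higher and 2 were lower, against 6.3% and 7.7% of all genes. Nppa, the atrial natriuretic peptide, stood at a mean of 9.97 in GRK2+/- and 11.17 in WT hearts (-1.20 ± 0.27; limma unadjusted p = 0.00148), and the potassium channel gene Kcnj3 at 9.43 and 9.11 (0.32 ± 0.09; limma unadjusted p = 0.00495), each without overlap. The third, Bmp10, was not above background (-0.19 ± 0.08). None of the 3 passed an adjusted p of 0.05, and the part of atrial content in the receptor values was not tested. Nothing in the labels says whether the samples of a group were prepared separately, so p-values measure the spread between these 6 samples.

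No receptor passed the test. With limma and Benjamini-Hochberg adjustment over all genes, 0 of 37 receptors had an adjusted p under 0.05, and the background was 0% (0 of 18193 genes). The smallest adjusted p of a receptor was 0.176, for Ptafr. At an unadjusted p under 0.05 there were 6 receptors, 3 higher in GRK2+/- hearts (Aplnr, Ptgir, Ptafr) and 3 lower (P2ry14, Htr2b, F2rl2). Of all genes 6.3% were higher and 7.7% lower by the same rule, and 14% in either direction, so the count among receptors (6 of 37) lay near the background. With array medians set equal the split of all genes turned to 8.5% higher and 4.89% lower, and that of the receptors to 4 higher and 3 lower. The median difference was 0.001 over the 37 receptors and -0.019 over all genes. The groups did not overlap for 5 receptors, 2 higher (Ptafr, Agtr1a) and 3 lower (P2ry14, Htr2b, F2rl2), against 19.1% of all genes (7.44% higher, 11.6% lower). With every probe set as its own row, 4 of the 64 receptor probe sets were higher and 7 lower at an unadjusted p under 0.05, against 5.44% and 7.4% of all probe sets. With 3 hearts against 3 an exact two-sided permutation test cannot give a p below 0.1.

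**Figure D1:**
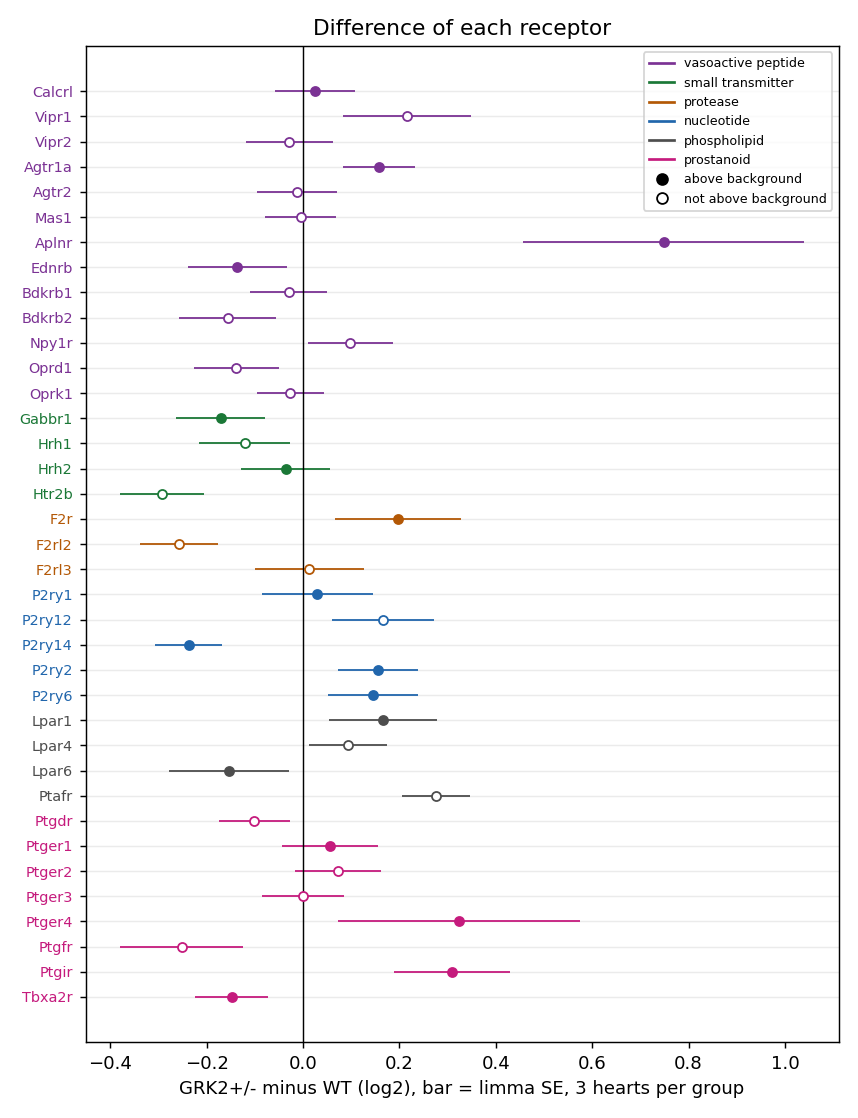
Difference between GRK2+/- and WT hearts (x axis, log2, bars limma SE, 3 hearts per group) of the 37 receptors (y axis), coloured by ligand class, with filled points for receptors above background. Differences run from -0.29 (Htr2b) to 0.75 (Aplnr), and Aplnr has the widest bar.

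Of the 37 receptors 17 lay above background. Background was taken as 6.43, the 95th percentile of the mean level of 74 odorant, vomeronasal and bitter taste receptor genes, which are G protein-coupled receptors of sensory organs. Probe sets differ in their own background, so the line is a description and levels of different receptors are not ranked. Above it were Agtr1a, Aplnr, Calcrl and Ednrb among peptide receptors, Hrh2 and Gabbr1 among receptors for small transmitters, the thrombin receptor F2r, the nucleotide receptors P2ry1, P2ry2, P2ry6 and P2ry14, the lysophosphatidic acid receptors Lpar1 and Lpar6, and the prostanoid receptors Ptger1, Ptger4, Ptgir and Tbxa2r. Just inside the line were Ptgir (mean 6.58) and Gabbr1 (6.67), and just outside it was Ptgdr (6.39). Ptafr (6.12) lay farther below the line and was under it in every heart. The second angiotensin receptor Agtr2 and the angiotensin 1-7 receptor Mas1 stayed between 4.02 and 4.32 in every heart. Of the 6 receptors with an unadjusted p under 0.05, Aplnr, P2ry14 and Ptgir lay above background, and Ptafr, Htr2b and F2rl2 did not. So of the 17 receptors above background 2 were higher and 1 lower, where 8.61% and 6.95% of all genes above background were. Ptgir, 1 of the 2 that were higher, had a WT mean of 6.425, under the line at 6.432, and a GRK2+/- mean of 6.735. It was counted as above background only through its GRK2+/- values. The groups of 1 did not overlap with GRK2+/- higher (Agtr1a) and of 1 with GRK2+/- lower (P2ry14), against 9.88% and 10.8% of genes above background.

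**Figure D2:**
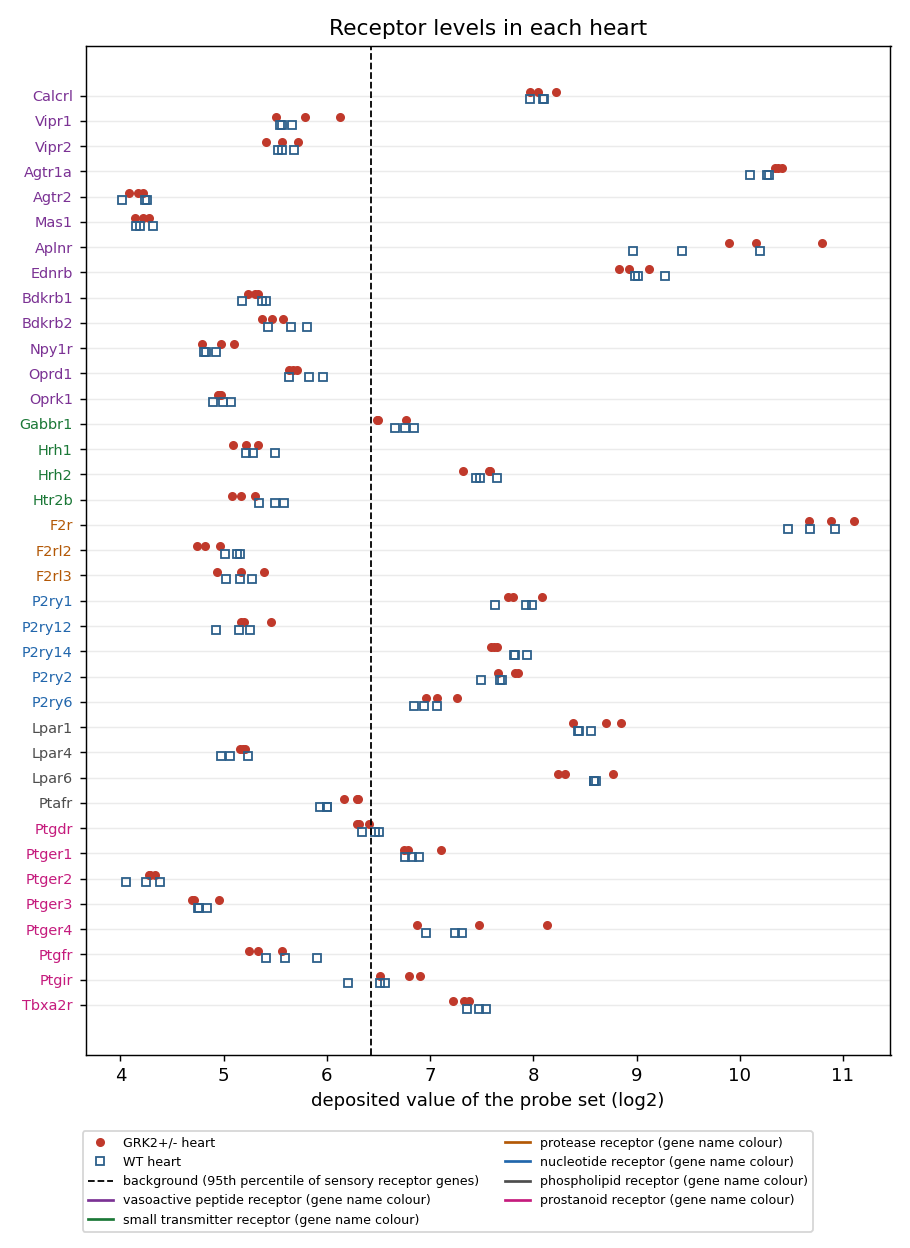
Deposited log2 value (x axis) of the probe set of each of the 37 receptors (y axis, names coloured by ligand class) in the 3 GRK2+/- hearts (filled circles) and the 3 WT hearts (open squares), with the background level of 6.43 as a dashed line. Most receptors lie to the left of the line or have overlapping groups. Agtr1a and P2ry14 lie above the line with their groups apart.

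Among receptors for vasoactive peptides (13 measured of 14), Aplnr had the largest difference of any receptor described here. Aplnr is the receptor for apelin, a peptide that relaxes vessels and strengthens contraction. It stood at 9.89, 10.80 and 10.16 in GRK2+/- hearts 1, 2 and 3 and at 9.44, 10.20 and 8.97 in WT hearts 1, 2 and 3. WT heart 2 lay above GRK2+/- hearts 1 and 3, so the groups overlapped. The difference was 0.75 ± 0.29 (1.68-fold; limma unadjusted p = 0.0287, adjusted p = 0.309). Its other probe set gave 0.26 ± 0.17, and the mean of both 0.51. Without GRK2+/- heart 2 the difference was 0.49 (unadjusted p = 0.11), without WT heart 3 it was 0.47 (unadjusted p = 0.12), and without WT heart 1 it was 0.70 (unadjusted p = 0.0823). It was larger without WT heart 2, at 1.08 (unadjusted p = 0.00217), without GRK2+/- heart 1, at 0.94 (unadjusted p = 0.0152), and without GRK2+/- heart 3, at 0.81 (unadjusted p = 0.0383).

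Markers of endothelium, where Aplnr is known to be expressed, were read in the same hearts. Of the 12 endothelial markers 9 were above 0, with a median difference of 0.12. At an unadjusted p under 0.05, 3 were higher and 1 lower, against 6.3% and 7.7% of all genes. The groups did not overlap for 3 higher and 3 lower markers, against 7.44% and 11.6% of all genes. Their mean level was 9.06, 9.24 and 9.12 in GRK2+/- hearts 1, 2 and 3 and 9.06, 9.09 and 8.91 in the WT hearts. As for Aplnr, heart 2 was the highest of each group and WT heart 3 the lowest of all. The same held for the 11 fibroblast markers, at 9.48, 9.64 and 9.53 in GRK2+/- hearts and 9.45, 9.56 and 9.41 in WT hearts. Heart 2 was also the highest of each group for the cardiomyocyte markers, but not for those of smooth muscle and pericytes. The endothelial markers were not uniform. Kdr (0.55 ± 0.12; limma unadjusted p = 0.00116) and Cldn5 (0.55 ± 0.16; limma unadjusted p = 0.00592) were higher and Robo4 (-0.31 ± 0.08; limma unadjusted p = 0.0025) was lower, each without overlap between the groups and none with an adjusted p under 0.05. Tek was the third that was higher (0.23 ± 0.09), also without overlap. Esam (-0.15) and Pecam1 (-0.12) were lower without overlap, and Cdh5 differed by 0.13. The part of endothelial content in the Aplnr difference was not tested. The ligand genes Apln (0.03 ± 0.10) and Apela (0.03 ± 0.08) were close to 0.

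Agtr1a, the angiotensin II receptor that constricts vessels and drives hypertrophy, was 10.34, 10.37 and 10.41 in GRK2+/- hearts and 10.29, 10.10 and 10.26 in WT hearts. Every GRK2+/- heart lay above every WT heart, by a small margin. The difference was 0.16 ± 0.07 (limma unadjusted p = 0.0595), 0.10 without WT heart 2, and 0.19 with array medians set equal (unadjusted p = 0.0395). The precursor of its ligand, Agt, differed by -0.28 ± 0.14, and the converting enzyme Ace by -0.10 ± 0.07. Markers of smooth muscle and pericytes, which carry this receptor, had a median difference of 0.19 over 12 genes. At an unadjusted p under 0.05, 5 of these markers were higher and 0 lower, against 6.3% and 7.7% of all genes. Their mean level was 9.90, 9.98 and 10.02 in GRK2+/- hearts and 9.81, 9.84 and 9.75 in WT hearts. Fibroblasts and cardiomyocytes carry the receptor too. The 11 fibroblast markers had a median difference of 0.09 (2 higher, 0 lower by the same rule). The 12 cardiomyocyte markers had a median difference of -0.01 (1 higher, 0 lower). The part of these cell types in the Agtr1a value was not tested.

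Calcrl, which binds adrenomedullin or the peptide CGRP depending on its partner protein, gave values that depended on the probe set. Its brightest probe set was 8.05, 8.22 and 7.97 in GRK2+/- hearts and 8.09, 8.11 and 7.97 in WT hearts, a difference of 0.02 ± 0.08. The remaining probe sets, both below background, gave -0.18 ± 0.07 and -0.33 ± 0.09. The groups of each did not overlap (limma unadjusted p = 0.0249 and 0.00492, every probe set as its own row). With the mean of the 3 probe sets the sign turned to -0.16. The partner proteins that set the ligand preference of Calcrl were measured by probe sets of their own. Ramp2, which makes it an adrenomedullin receptor, was 9.49, 9.38 and 9.26 in GRK2+/- hearts and 9.82, 9.65 and 9.75 in WT hearts. The groups were apart, with a difference of -0.36 ± 0.08 (limma unadjusted p = 0.00128, adjusted p = 0.144). Ramp3, a second partner for adrenomedullin, differed by -0.31 ± 0.10, again without overlap, and Ramp1, which makes the CGRP receptor, by -0.05 ± 0.21. Adrenomedullin itself, Adm, differed by -0.27 ± 0.12.

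The endothelin B receptor Ednrb, which clears endothelin and releases nitric oxide in endothelium, was 8.83, 9.12 and 8.93 in GRK2+/- hearts and 9.02, 9.28 and 8.98 in WT hearts, which overlapped (-0.14 ± 0.10). Its probe sets gave -0.26, -0.14 and 0.04. The probe set at -0.26 was above background (mean 6.99), and its groups did not overlap (limma unadjusted p = 0.0297, every probe set as its own row). The ligand gene Edn1 differed by 0.06 ± 0.09, and Ece1, the enzyme that activates endothelin, by 0.21 ± 0.07. With the mean of its 3 probe sets Ece1 was 0.08. The remaining 9 measured peptide receptors were not above background. They were Agtr2, Mas1, the kinin receptors Bdkrb1 and Bdkrb2, the neuropeptide Y receptor Npy1r, the opioid receptors Oprd1 and Oprk1, and the receptors Vipr1 and Vipr2 for vasoactive intestinal peptide. Their differences ran from -0.16 (Bdkrb2) to 0.22 (Vipr1), and the groups overlapped for each. For Vipr1, GRK2+/- heart 3 (5.51) lay below GRK2+/- hearts 1 (5.79) and 2 (6.13). Its difference was 0.36 if GRK2+/- heart 3 was left out and 0.06 if heart 2 was. The mean of its probe sets gave 0.01. The probe sets of Npy1r gave 0.10 and -0.19, and those of Bdkrb2 -0.16 and -0.02.

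All 4 measured receptors for small transmitters had a difference below 0, as did 10270 of 18193 genes. Htr2b, a serotonin receptor of heart valves and fibroblasts, was 5.08, 5.17 and 5.30 in GRK2+/- hearts and 5.34, 5.50 and 5.59 in WT hearts. The groups did not overlap, but all 6 values were under the background level. The difference was -0.29 ± 0.09 (limma unadjusted p = 0.00744, adjusted p = 0.219). Gabbr1, a subunit of the receptor for the inhibitory transmitter GABA, was 6.48, 6.50 and 6.77 in GRK2+/- hearts and 6.84, 6.75 and 6.66 in WT hearts. GRK2+/- heart 3 overlapped the WT hearts, and the difference was -0.17 ± 0.09. It was -0.26 without that heart, and 2 of its 4 probe sets pointed the other way. Their mean gave 0.01 and the most variable 0.15. The histamine receptors Hrh1 and Hrh2, which act through calcium and cyclic AMP respectively, differed by -0.12 ± 0.09 and -0.04 ± 0.09. The other probe set of Hrh1 gave 0.02.

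Of the receptors that proteases activate by cutting their outer end, F2r, the main thrombin receptor, lay above background. It stood at 10.67, 11.11 and 10.89 in GRK2+/- hearts and at 10.68, 10.92 and 10.47 in WT hearts. The groups overlapped, and the difference was 0.20 ± 0.13 (limma unadjusted p = 0.164), with 0.17 ± 0.11 from its other probe set. It was 0.09 without WT heart 3 and again without GRK2+/- heart 2, and 0.31 without GRK2+/- heart 1 or without WT heart 2. F2rl2, a cofactor for thrombin on platelets, was 4.82, 4.74 and 4.97 in GRK2+/- hearts and 5.01, 5.16 and 5.13 in WT hearts. The groups did not overlap but all values were below background, with a difference of -0.26 ± 0.08 (limma unadjusted p = 0.00979, adjusted p = 0.233). F2rl3, another thrombin receptor of platelets, differed by 0.01 ± 0.11. Of the 7 platelet markers 1 was higher (Pf4, 0.32) and 2 were lower (Gp9, -0.19, and Itga2b, -0.18) at an unadjusted p under 0.05. By the same rule 6.3% of all genes were higher and 7.7% lower. The mean level of the platelet markers ran from 7.18 to 7.27 in GRK2+/- and from 7.23 to 7.30 in WT hearts. Their part in the F2rl2 value was not tested.

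Among the 5 nucleotide receptors, P2ry14 was the 1 receptor above background whose groups did not overlap and whose unadjusted p was under 0.05. P2ry14 is the receptor for UDP-glucose and other UDP-sugars. It was 7.59, 7.65 and 7.62 in GRK2+/- hearts and 7.82, 7.94 and 7.81 in WT hearts. The highest GRK2+/- heart lay below the lowest WT heart, and the spread within a group (SD 0.03 and 0.07) was smaller than the gap. The difference was -0.24 ± 0.07 (limma unadjusted p = 0.00634, adjusted p = 0.212), and between -0.26 and -0.20 in the 15 alternatives run, with an unadjusted p of at most 0.0253. The unadjusted p of Htr2b and F2rl2 likewise stayed under 0.05 in the 13 alternatives that kept them (at most 0.0337 and 0.0426). P2ry14 and Htr2b have 1 probe set each, so the other probe set rules could not change their differences. The variance prior, the filters and the replicate block leave a difference as it is by design. P2ry2 and P2ry6, which respond to UTP and UDP, lie next to each other in the genome, with 0 protein-coding genes between them. P2ry2 was 7.83, 7.85 and 7.66 in GRK2+/- hearts and 7.69, 7.68 and 7.50 in WT hearts (0.16 ± 0.08). P2ry6 differed by 0.15 ± 0.09, and the groups of both overlapped. P2ry1, the ADP receptor that starts platelet shape change, differed by 0.03 ± 0.12. P2ry12, the ADP receptor of platelets and microglia, lies near P2ry14, with 2 protein-coding genes between them. It was below background and differed by 0.17 ± 0.11, in the opposite direction to that neighbour.

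**Figure D3:**
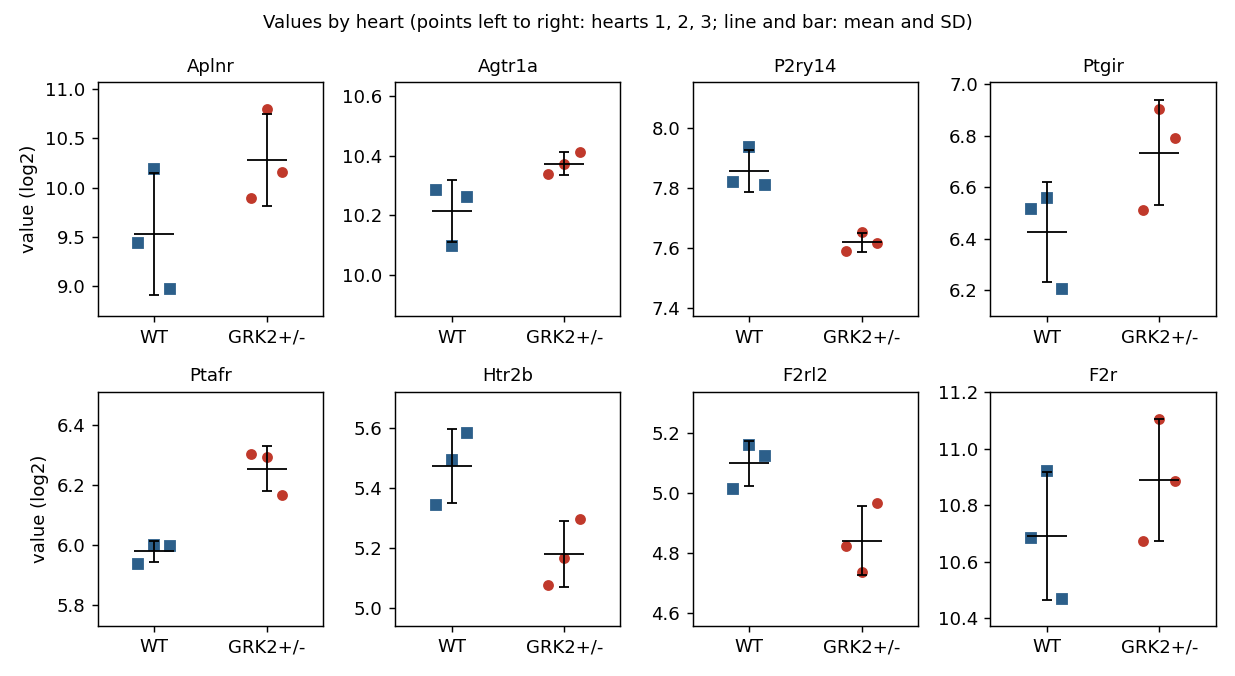
Deposited log2 values (y axis, a scale of its own in each panel) of 8 receptors in the WT hearts (squares) and GRK2+/- hearts (circles), with the mean and SD of 3 hearts. The groups are apart for Agtr1a, P2ry14, Ptafr, Htr2b and F2rl2 and overlap for Aplnr, Ptgir and F2r.

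Ptafr had the smallest p of any receptor described. It is the receptor for platelet-activating factor, a phospholipid that activates leukocytes. It was 6.30, 6.29 and 6.17 in GRK2+/- hearts and 5.94, 6.00 and 6.00 in WT hearts. The groups did not overlap, although each value was under the background level of 6.43. The difference was 0.28 ± 0.07 (limma unadjusted p = 0.00274, adjusted p = 0.176). Its other probe set, which was the more variable, gave 0.05 ± 0.11, and their mean 0.16 (unadjusted p = 0.0671). Of the 7 neutrophil markers 3 were higher and 0 lower at an unadjusted p under 0.05, against 6.3% and 7.7% of all genes. The mean level of these markers was 7.06, 7.30 and 7.45 in GRK2+/- hearts and 6.57, 6.68 and 6.55 in WT hearts. The mean was carried by S100a9 (2.25 ± 0.33; limma adjusted p = 0.0762) and S100a8 (1.97 ± 0.29; limma adjusted p = 0.08), the subunits of calprotectin. The third was Csf3r (0.33 ± 0.10, not above background). The remaining 4 ran from -0.09 (Ngp) to 0.155 (Mmp8), which was also the median of the 7, and Ngp and Camp were below 0. The mean level of 11 macrophage and monocyte markers was 8.47, 8.55 and 8.57 in GRK2+/- hearts and 8.56, 8.49 and 8.43 in WT hearts. GRK2+/- heart 3, the highest for the mean of the neutrophil markers, was the lowest GRK2+/- heart for Ptafr. The part of leukocyte content in the Ptafr value was not tested.

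The receptors for lysophosphatidic acid, a growth-promoting phospholipid, did not share a direction. Lpar1, found on fibroblasts, was 8.38, 8.85 and 8.70 in GRK2+/- hearts and 8.56, 8.44 and 8.44 in WT hearts. GRK2+/- heart 1 was the lowest of all 6, so the groups overlapped. The difference was 0.17 ± 0.11 (limma unadjusted p = 0.171), and 0.30 without GRK2+/- heart 1, and its probe sets ran from -0.08 to 0.31. Lpar6, an endothelial and skin receptor, differed by -0.15 ± 0.12, and by -0.32 without GRK2+/- heart 3. Lpar4 was below background (0.09 ± 0.08). Plpp3, a membrane enzyme that breaks down lysophosphatidic acid, was 10.84, 10.79 and 10.91 in GRK2+/- hearts and 10.44, 10.52 and 10.31 in WT hearts. Its groups were apart by more than the spread within either, at 0.42 ± 0.08 (limma unadjusted p = 0.000265, adjusted p = 0.0961). With the variance prior fitted to the mean level it passed (adjusted p = 0.0361), and in the other alternatives the adjusted p was at least 0.0632. It was the smallest p among the 23 measured genes that supply or remove phospholipid, nucleotide and transmitter ligands.

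Prostanoid receptors bind the lipid products of cyclooxygenase, and 8 of 8 were measured. Ptgir, the receptor for prostacyclin, which relaxes vessels through cyclic AMP, was 6.51, 6.90 and 6.79 in GRK2+/- hearts and 6.51, 6.56 and 6.20 in WT hearts. GRK2+/- heart 1 lay within the WT range and the other two above it. The difference was 0.31 ± 0.12 (limma unadjusted p = 0.0287, adjusted p = 0.309). It was 0.20 without WT heart 3 (unadjusted p = 0.121), 0.23 without GRK2+/- heart 2 (unadjusted p = 0.107) and 0.28 without GRK2+/- heart 3 (unadjusted p = 0.0755). Ptgfr, the receptor for prostaglandin F2 alpha, was below background at 5.34, 5.25 and 5.57 in GRK2+/- hearts and 5.41, 5.59 and 5.90 in WT hearts. Its groups overlapped, the difference was -0.25 ± 0.13, and without WT heart 3 it was -0.12. It was -0.365 without WT heart 1 (unadjusted p = 0.0178) and -0.34 without GRK2+/- heart 3 (unadjusted p = 0.0278). Its 5 probe sets ran from -0.26 to 0.09, with 3 below 0 and 2 above, and their mean gave -0.09. Ptger4, the prostaglandin E2 receptor of leukocytes and vessels, had the largest SD of any receptor in a single group. Aplnr came close (SD 0.62 in WT hearts) and had the larger SE. Ptger4 was 6.87, 8.14 and 7.47 in GRK2+/- hearts (SD 0.63) and 6.96, 7.24 and 7.31 in WT hearts (SD 0.18). Its difference of 0.32 ± 0.25 was 0.63 without GRK2+/- heart 1 and 0.002 without GRK2+/- heart 2. The thromboxane receptor Tbxa2r, which constricts vessels and activates platelets, differed by -0.15 ± 0.08. Ptger1, Ptger2, Ptger3 and Ptgdr lay between -0.10 and 0.07.

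Of the 12 measured genes of prostanoid synthesis and breakdown, 5 were lower and 0 higher at an unadjusted p under 0.05, against 7.7% and 6.3% of all genes, and 0 passed an adjusted p of 0.05. The list median was -0.11, against -0.019 for all genes. Ptgds, the prostaglandin D2 synthase, was 12.78, 13.54 and 12.52 in GRK2+/- hearts and 13.57, 13.59 and 13.68 in WT hearts. Its groups did not overlap, although GRK2+/- heart 2 lay close to the WT hearts. Its difference was -0.67 ± 0.21 (limma adjusted p = 0.230). Without GRK2+/- heart 2 it was -0.97 and passed (adjusted p = 0.0257), and in the other alternatives it ran from -0.94 to -0.46 with an adjusted p of at least 0.156. Ptgr1, which breaks prostaglandins down, differed by -0.28 ± 0.10, Pla2g4a, which releases their precursor arachidonic acid, by -0.19 ± 0.07, and the prostacyclin synthase Ptgis by -0.18 ± 0.08. Ptgr1 was -0.18 without GRK2+/- heart 1 (unadjusted p = 0.0602). Pla2g4a lost an unadjusted p under 0.05 without WT heart 1 (-0.15), without GRK2+/- heart 3 (-0.17) and with array medians set equal (-0.16). The inducible cyclooxygenase Ptgs2 was below background and differed by -0.02 ± 0.09. Ptgs1, Ptges3 and Akr1b3 completed the list of 15 genes and were not analysed here.

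**Figure D4:**
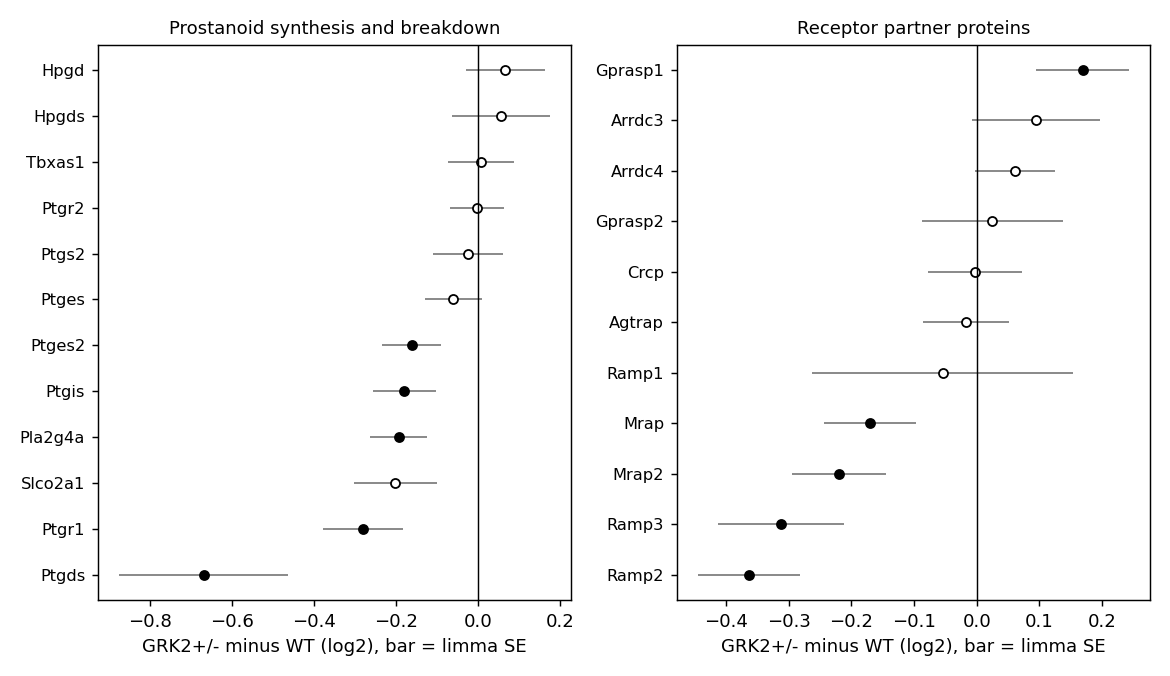
Difference between GRK2+/- and WT hearts (x axis, log2, bars limma SE, 3 hearts per group) of 12 genes of prostanoid synthesis and breakdown (left) and 11 receptor partner proteins (right), filled where the unadjusted p was under 0.05. Filled points lie below 0 except Gprasp1; 5 genes on the left and Ramp2, Ramp3, Mrap and Mrap2 on the right are filled below 0.

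Of 11 receptor partner proteins 4 were lower and 1 higher at an unadjusted p under 0.05, against 7.7% and 6.3% of all genes. Beside the RAMP genes, Mrap2, a partner of melanocortin receptors that was not above background, differed by -0.22 ± 0.08, and by -0.18 without WT heart 2 (unadjusted p = 0.055) and -0.17 without GRK2+/- heart 2 (unadjusted p = 0.0663). Of 24 peptide ligands and processing enzymes 3 were higher and 4 lower, against 6.3% and 7.7% of all genes. The peptidases Mme (0.41 ± 0.12, not above background), Dpp4 (0.23 ± 0.07) and Ece1 had the smallest p, and with the mean of their probe sets Mme was 0.16 and Dpp4 0.10. None of these genes passed an adjusted p of 0.05.

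Downstream of the receptors that act through Gq, 22 effector genes had a median difference of 0.04, with 1 higher and 0 lower at an unadjusted p under 0.05, against the same 6.3% and 7.7%. The gene was Gnaq, the Gq subunit itself, at 8.64, 8.63 and 8.54 in GRK2+/- hearts and 8.49, 8.45 and 8.31 in WT hearts. The groups did not overlap, at 0.19 ± 0.07 (limma adjusted p = 0.313). With the mean of its 7 probe sets Gnaq was 0.05 and with its most variable probe set 0.36, and it lost an unadjusted p under 0.05 without GRK2+/- heart 1 (0.17), without GRK2+/- heart 2 (0.18), without WT heart 3 (0.14) and after quantile normalisation (0.17). The phospholipases C Plcb4 and Plcb1 differed by -0.15 ± 0.07 and 0.23 ± 0.11. Of the receptor kinases and arrestins other than Grk2, 6 were measured and none had an unadjusted p under 0.05. Grk4, Arrb2 and Grk5 differed by -0.10 ± 0.09, -0.05 ± 0.11 and 0.03 ± 0.10. Of 9 adrenergic receptors 2 were measured, Adra1b (0.20 ± 0.09, unadjusted p = 0.0596, and 0.10 without WT heart 2) and Adra2c (0.00 ± 0.07).

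The members were also compared by genome position and promoter, which their choice had not used. Besides P2ry2 with P2ry6, the pairs Bdkrb1 with Bdkrb2 and Ptgdr with Ptger2 had 0 protein-coding genes between them, and F2r and F2rl2 had 1. Neighbours did not share a direction throughout: F2r differed by 0.20 and F2rl2 by -0.26, Ptgdr by -0.10 and Ptger2 by 0.07. RefSeq promoters (GRCm38.p6, 250 bases before to 50 after a start site) were listed for 31 of the 37 receptors, with 42 start sites. Motifs were searched on both strands. The GC box GGGCGG was in 22 of these 42 promoters and in 35.7% of 32851 promoters of all genes. The CCAAT box was in 11 of 42 (37.4% of all), the TATA box TATAAA in 2 of 42 (13.6% of all), and the cyclic AMP response element TGACGTCA in 0 of 42 (1.8% of all). A match is a description of letters in this window and not a site. The promoters are given for Ptgir and P2ry14, the receptors above background with a listed promoter and an unadjusted p under 0.05, with capitals marking matches of the 4 motifs on either strand. Ptgir holds 2 GC boxes, starting at positions -76 and -13 from the start site. P2ry14 has 4 listed start sites. The one farthest downstream holds a TATA box starting at -118 and 2 CCAAT boxes starting at -245 and -38, all on the opposite strand, and the other 3, of which the one farthest upstream is printed, hold no match. The arrays do not tell which start site was used.
Ptgir, chr7:16906240-16906539, plus strand: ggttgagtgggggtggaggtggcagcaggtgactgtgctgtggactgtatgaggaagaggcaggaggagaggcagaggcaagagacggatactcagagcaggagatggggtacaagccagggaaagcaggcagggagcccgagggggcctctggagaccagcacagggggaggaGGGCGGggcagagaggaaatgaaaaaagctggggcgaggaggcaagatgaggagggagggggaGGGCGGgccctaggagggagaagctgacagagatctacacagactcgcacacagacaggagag
P2ry14, chr3:59153443-59153742, minus strand: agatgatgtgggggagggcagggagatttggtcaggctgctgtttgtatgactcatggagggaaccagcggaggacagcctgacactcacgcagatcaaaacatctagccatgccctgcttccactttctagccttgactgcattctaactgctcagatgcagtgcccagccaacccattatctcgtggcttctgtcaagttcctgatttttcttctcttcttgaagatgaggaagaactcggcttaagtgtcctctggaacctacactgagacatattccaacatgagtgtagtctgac
P2ry14, chr3:59130713-59131012, minus strand: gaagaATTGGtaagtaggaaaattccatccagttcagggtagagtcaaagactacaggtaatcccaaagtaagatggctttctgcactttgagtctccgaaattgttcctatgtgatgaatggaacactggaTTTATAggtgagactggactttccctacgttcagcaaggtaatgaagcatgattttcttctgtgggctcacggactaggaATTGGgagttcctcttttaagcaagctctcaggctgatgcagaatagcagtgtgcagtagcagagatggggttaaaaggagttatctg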

How the data were processed

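RNA from 6 hearts was hybridised to Affymetrix arrays. The authors deposited log2 probe set values, and the submitters' processing notes name RMA and limma. Their versions, and whether 1 run covered all arrays, are not given in these sources. RMA draws low values together, which understates changes of dim genes. Of 45101 probe sets, 64 controls were left out; 34945 had 1 gene symbol in the platform annotation, 932 had several and 9160 were not listed. Symbols were updated through RefSeq (34741 probe sets), and the probe set with the highest mean was kept for each of 18193 genes. limma 3.58.1 (R 4.3.3; lmFit and eBayes, two-sided, no trend) compared the groups, with Benjamini-Hochberg adjustment over all genes, and the steps were tested on simulated data.

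The members and lists were chosen with earlier results of these data known. Named were receptors with an unadjusted p under 0.05 or groups that did not overlap, at least 2 per ligand class, and the 3 smallest p of each companion list. The number of arrays limits the precision. Other genes were named for their role, after their values were seen. Alternatives were other scalings, priors, array weights, probe set rules, filters, a replicate block and leaving out each heart.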

Additional observations from a re-analysis of the deposited data

How the results depend on the processing

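No receptor passed an adjusted p of 0.05 in any of the 15 alternatives. The count of all genes that passed, 0 as reported, was 42 with a variance prior fitted to the mean level, 12 with array weights, 12 with the most variable probe set of a gene, 6 without genes below the gene table median, and 0 to 56 when each heart was left out in turn. The 6 receptors at an unadjusted p under 0.05 became 3 without genes below background and 2 without those below the gene table median, and 4 to 10 with a heart left out (10 without GRK2+/- heart 3 and 10 without WT heart 1). The 5 receptors whose groups did not overlap became 2 under either filter. With the background at the median of the sensory receptor genes 34 receptors lay above it. Under each of the other probe set rules 4 receptors changed sign. With the mean they were Calcrl (-0.16), Gabbr1 (0.01), Npy1r (-0.04) and Ptger3 (-0.02), and with the most variable Calcrl (-0.33), Gabbr1 (0.15), Npy1r (-0.19) and Hrh1 (0.02), when Plcb4 turned to 0.40 too. Leaving out a heart changed the sign of 1 to 7 receptors (7 without GRK2+/- heart 2). Under centring 4 and under quantile normalisation 5 receptors near 0 changed sign, none of them above background. The cause of these shifts was not tested.

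Whether same-numbered hearts were paired could not be decided with 3 hearts per group. Deviations from the group means correlated at -0.183, -0.005 and 0.016 for same-numbered hearts. For hearts with different numbers the values ran from -0.162 to 0.159. With the replicate block 1 gene and 0 receptors passed, and 7 receptors had an unadjusted p under 0.05 (Aplnr at 0.000519, adjusted p = 0.171, by limma). With every probe set as its own row, an alternative chosen after seeing the data, 0 of 64 receptor probe sets passed, and 4 were higher and 7 lower at an unadjusted p under 0.05 (5.44% and 7.4% of all probe sets).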
